A study of Mus musculus with 24 samples.

Results

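Keratins are the intermediate filament proteins of epithelial cells, and 42 keratin genes were measured by 50 of the 41174 probes of a mouse expression array in whole colon and liver. Members were all non-control probes whose gene name on the array is Krt followed by a digit, and the keratin-associated proteins (Krtap) were left out. Where a gene had more than 1 probe, the one of highest mean intensity was used (the main probe). Another 4 probes carry accessions that now belong to keratins (Krt79, Krt86, Krt88 and Krt90) under other array names and are not members.

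The samples were the colon and the liver of 12 female C57BL/6 mice aged 12 weeks. All dams ate HF-low, a fat-rich diet poor in folate and selenium, from 7 days before mating through gestation and lactation. At weaning at about 28 days, 6 offspring stayed on HF-low (HF-low-low) and 6 moved to HF-suf, which is also fat-rich but adequate in both nutrients (HF-low-suf). Each of the 24 two-colour arrays held 1 mouse's tissue RNA labelled with Cy3 and a pool of colon and liver RNA of all mice labelled with Cy5, with no dye swap. Values are log2 ratios of the sample to the pool, so 0 means the level of the pool, and they compare samples for 1 probe but not 1 probe with another. There was no group without the maternal HF-low diet, and the tissue was extracted whole, so epithelium, muscle, vessels and blood cells contributed together. In such bulk RNA, fewer cells of a type and less RNA per cell cannot be told apart.

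Keratin filaments form from pairs of an acidic type I and a basic type II protein, and each kind of epithelium uses its own pairs. Simple, single-layered epithelia use Krt8 with Krt18, and many add Krt7, Krt19, Krt20 or Krt23. Hepatocytes are known for holding Krt8 and Krt18 alone, while bile duct cells also hold Krt7 and Krt19, and Krt20 marks differentiated cells of the gut surface. Stratified epithelia such as epidermis and the lining of the mouth use other pairs, and the hair shaft and its inner root sheath use further sets. By these roles the 42 genes fell into 6 simple-epithelial keratins, 18 stratified keratins, 6 inner root sheath keratins, 11 hair keratins and Krt222, a keratin-like gene placed in no class.

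The probes of the results below are shown first, each as the 60 bases spotted on the array. The first pair measured Krt8 and Krt18, the partners whose tissue differences were unequal, and capitals mark the longest run that both probes share, of 11 bases.

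Krt8: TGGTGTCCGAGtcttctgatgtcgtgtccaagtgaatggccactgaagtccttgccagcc
Krt18: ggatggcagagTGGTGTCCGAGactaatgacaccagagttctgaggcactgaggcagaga

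In build mm7, the build of the array files, the Krt8 probe lies on the minus strand at chr15:101983072-101983131 and the Krt18 probe on the plus strand at chr15:102018067-102018126. Krt18 is a type I keratin that sits beside Krt8 in the type II cluster, whereas the other type I genes lie on chromosome 11.

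The Krt19 probe and the dimmer of the Krt10 probes were the most alike of the 1225 pairs of keratin probes. Capitals mark the 26 identical bases in the 39-base ungapped overlap of the pair, a likeness of 66.7%. No pair of different genes reached 80% over an overlap of at least 30 bases.

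Krt19: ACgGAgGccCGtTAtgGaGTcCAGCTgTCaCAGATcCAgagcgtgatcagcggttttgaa
Krt10 (dimmer probe): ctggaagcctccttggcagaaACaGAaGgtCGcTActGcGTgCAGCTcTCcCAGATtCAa

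The Krt13 probes are shown because their calls differed, the dimmer one being near background. Capitals mark 27 bases that encode the start of the central rod helix, a stretch that type I keratins are known to share closely, and 1 of the 50 keratin probes carried it.

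Krt13 (brighter probe): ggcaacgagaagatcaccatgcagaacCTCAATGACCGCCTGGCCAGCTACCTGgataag
Krt13 (dimmer probe): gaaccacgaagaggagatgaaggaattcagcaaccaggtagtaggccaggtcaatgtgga

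The brighter Krt13 probe lies at chr11:100230196-100230255 and the dimmer one spans chr11:100228435-100228673, both on the minus strand. The Krt19 probe lies on the same strand at chr11:100250117-100250176.

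The share of spots that the scanner software marked as well above background in Cy3 ranged from 26.1% to 71.9%, and the median Cy5 signal from 300.2 to 1031. The highest median Cy5 signals were those of colon HF-low-suf replicate 5 and liver HF-low-suf replicate 4, and values without these 2 arrays are given where they mattered. The tissue labels held, since the 9 measured hepatocyte markers were all higher in liver and the 9 measured colon epithelium markers all higher in colon. Albumin (Alb), the main plasma protein made by hepatocytes, differed by -5.20 ± 0.15 (SE), and Lgals4, a lectin of gut epithelium, by 7.28 ± 0.11, colon minus liver on the log2 scale. Fgb and Cps1 were the farthest of the liver markers at -6.38 and -6.22, and Car1 followed Lgals4 at 5.71.

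Detection differed between the classes of keratins, with stratified keratins on both sides. A gene was taken as detected in a tissue where its main probe passed this background mark on 6 or more of 12 arrays. All 6 simple-epithelial keratins were detected on 12 of 12 arrays of both tissues. Of the other 36 keratins, 6 were detected, all of them stratified keratins and all in both tissues. These were Krt5, Krt10, Krt13, Krt14, Krt16 and Krt17, and of them Krt13 alone was well above background on 24 of 24 arrays. Krt14 passed on 6 liver arrays, liver HF-low-suf replicate 4 among them, so its detection there rests on that array of bright Cy5. No hair keratin and no inner root sheath keratin was detected in either tissue by this Cy3 mark. In Cy5, the pool of these same tissues, Krt84, Krt85, Krt1 and Krt12 were well above background on 12 colon and 12 liver arrays. Krt36 and Krt75 were so on 10 and 11 colon arrays and on 12 liver arrays, but Krt31 and Krt25 on 1 colon and 2 liver arrays. Undetected thus means a weak Cy3 signal and does not show absence from the tissue. The 12 keratins detected in colon were 12 of 42 genes, beside 43.9% of all probes, and the same 12 were detected in liver, beside 37.0% of all probes.

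**Figure D1:**
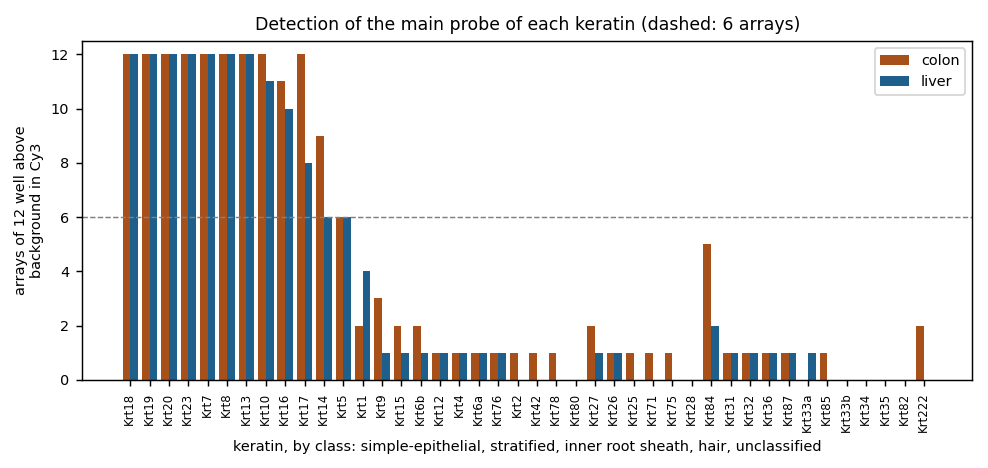
Bars give, for the main probe of each of 42 keratins, the number of 12 colon arrays and of 12 liver arrays on which it was well above background in Cy3, and the dashed line marks 6 arrays. The 6 simple-epithelial keratins reach 12 in both tissues, and every hair and inner root sheath keratin stays under 6.

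Of the 30 undetected keratins, 6 were well above background on none of the 24 arrays and 24 on at least 1. For Krt4 and Krt31 the arrays that passed were the 2 of bright Cy5, colon HF-low-suf replicate 5 and liver HF-low-suf replicate 4. The mark was counted on flagged spots too, and the liver spot that passed for Krt4 and for Krt27 was flagged. Krt84, a hair keratin, came nearest, on 5 colon and 2 liver arrays. Differences of undetected keratins concern signals near background and are given mainly by count and range. Flagged spots left 1 array out for Krt4, Krt6a, Krt15, Krt26, Krt27, Krt33a and Krt87 and 2 arrays for Krt76.

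The first comparison asked which keratins differ between colon and liver. It used limma on the 24 arrays, with mouse fitted as a random block, since the colon and liver of each mouse were both measured, and called a probe at a Benjamini-Hochberg adjusted P below 0.05 and a fold change above 1.5. Simple-epithelial keratins other than Krt18 were higher in colon, led by Krt20 and Krt19, whereas few keratins of the other classes differed. Of all probes, 23.6% were called, 12.2% higher in colon and 11.4% higher in liver. Median centring of the arrays in place of loess put 71.0% of the called probes higher in colon, beside 51.8% here. Of the 42 keratins, 8 were called higher in colon (Krt7, Krt8, Krt13, Krt17, Krt19, Krt20, Krt23 and Krt222) and 1 higher in liver (Krt10).

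Krt20, the keratin of differentiated gut surface cells, ranged over the 12 colon arrays from -0.46 to 0.70 with a median of -0.30. Its liver values ranged from -6.63 to -5.00 with a median of -6.11. Every colon array stood above every liver array, and the difference was 5.80 ± 0.16 (SE) on the log2 scale, 55.5-fold (limma adjusted P = 1.92e-21). Among all probes ordered from highest in colon to highest in liver, Krt20 came at place 21.

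Krt19, the smallest type I keratin and a partner of Krt8 in ducts and gut, ran from 0.17 to 1.19 in colon (median 0.88). In liver it ran from -5.33 to -4.14 (median -4.80). The difference was 5.59 ± 0.14 (SE), 48.2-fold (limma adjusted P = 2.07e-22), and it was at place 25 of all probes. Krt19 and Krt20 were well above background on every liver array despite these low ratios.

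Krt7, a type II keratin of ducts and glands, ran from 1.16 to 1.55 in colon (median 1.40) and from -2.51 to -1.63 in liver (median -2.03). The difference was 3.45 ± 0.10 (SE), 11.0-fold (limma adjusted P = 5.14e-21). Its dimmer probe gave 2.94 ± 0.18 (SE) and was well above background on 12 colon and 2 liver arrays. Both probes were called in the same direction.

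Krt8, the type II partner of Krt18 in every simple epithelium, ran from -0.70 to 0.44 in colon (median 0.20). In liver it ran from -4.19 to -1.86 (median -2.79). The groups did not overlap, and Krt8 was 7.94-fold higher in colon, a difference of 2.99 ± 0.18 (SE, limma adjusted P = 1.26e-13). A second Krt8 probe gave 2.71 ± 0.16 (SE).

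Krt18, the type I partner of Krt8, did not share this difference on its only probe. Its values ran from 0.62 to 0.96 in colon (median 0.73) and from 0.31 to 1.92 in liver (median 0.87). The colon range lay within the liver range, and the difference was -0.21 ± 0.13 (SE, limma adjusted P = 0.248). Krt18 was higher in colon in 6 of 12 mice, and the exact two-sided sign-flip permutation test of the 12 within-mouse differences gave P = 0.189. No array was marked as saturated for Krt18 in either channel. The Cy3 channel alone, quantile normalized, gave 0.26 ± 0.13 (SE, limma adjusted P = 0.124), which turns the sign of a difference that passed the test in neither setting.

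Krt23, a type I keratin of gut and glandular epithelium, ran from 1.68 to 2.57 in colon (median 2.20). In liver it ran from -0.04 to 2.38 (median 0.56), so the tissues overlapped. The difference was 1.36 ± 0.19 (SE), 2.58-fold (limma adjusted P = 1.33e-06), and 11 of 12 mice were higher in colon. Krt18 lay above the pool on 24 of 24 arrays and Krt23 on 23 of 24, although the pool was made from the same tissues. The part of the dyes, which were not swapped, in these levels was not tested.

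**Figure D2:**
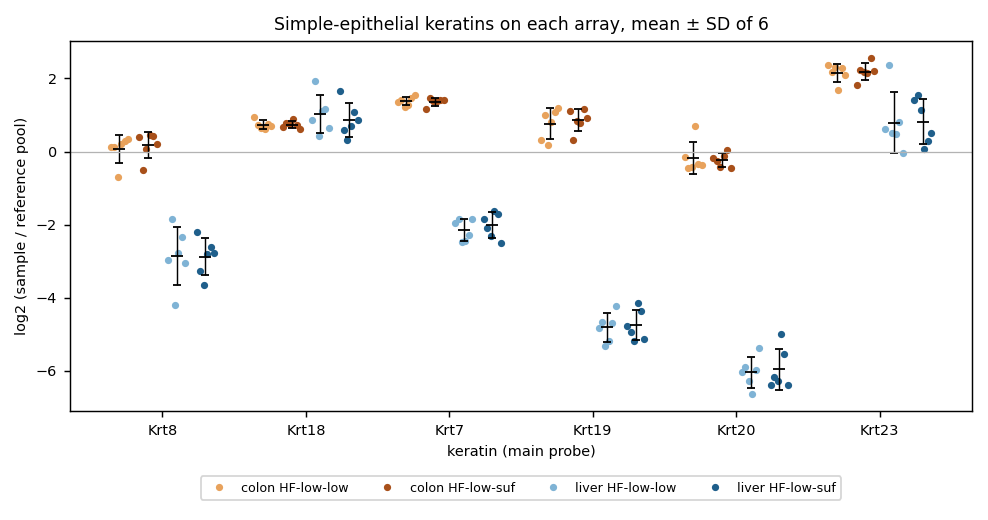
Points give the log2 ratio of sample to reference pool on each array for the main probes of the 6 simple-epithelial keratins, coloured by tissue and diet, with the mean ± SD of the 6 arrays of each group in black. Krt8, Krt7, Krt19 and Krt20 separate colon from liver, Krt18 does not, and within a tissue the 2 diets overlap for every gene.

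The inequality within the Krt8 and Krt18 pair was tested mouse by mouse. The colon minus liver difference of Krt8 exceeded that of Krt18 by 3.20 ± 0.26 (SD, n = 12 mice) on the log2 scale, from 2.58 to 3.59. It was above 0 in 12 of 12 mice, and the exact two-sided sign-flip permutation P was 0.000488, the smallest that 12 mice can give (adjusted P = 0.000732 over the 6 pairs of keratins compared). Within scan days, the mean was 3.14 on day 1 and 3.26 on day 2. This compares differences of probes on the same arrays, with no second probe for Krt18. It shows that they were unequal and gives no absolute level of either gene.

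The same test was run on 5 further pairs of these keratins, of which 4 passed, and no pair with Krt23 was compared. Krt19 exceeded Krt18 by 5.80 ± 0.73 (SD, n = 12), in 12 of 12 mice. The tissue difference of Krt19 exceeded that of Krt8 by 2.60 ± 0.62 (SD, n = 12) and that of Krt20 exceeded it by 2.81 ± 0.81, each in 12 of 12 mice (exact permutation P = 0.000488, adjusted P = 0.000732). Krt7 exceeded Krt8 by 0.47 ± 0.50 in 11 of 12 mice (exact permutation P = 0.00732, adjusted P = 0.00878). The test used the brighter probes. The dimmer Krt7 probe gave 2.94, between the 2.99 and 2.71 of the Krt8 probes. It was well above background on 2 liver arrays, so the size of its difference is limited and it does not settle this order. Krt20 and Krt19 differed by 0.20 ± 0.50 (SD, n = 12), with 6 of 12 mice above 0 (exact permutation P = 0.195), so their order did not hold against the spread between mice.

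**Figure D3:**
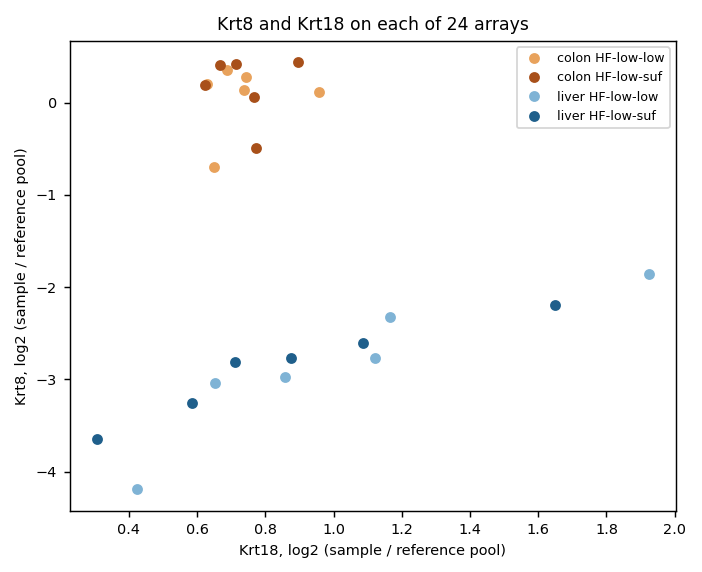
Each point is 1 of 24 arrays, with the log2 ratio of Krt18 to the pool on the horizontal axis and that of Krt8 on the vertical axis, coloured by tissue and diet. Colon arrays lie above liver arrays on the Krt8 axis at similar Krt18 values, and within liver the genes rise together.

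Over the 12 livers, Krt8 and Krt18 varied together. Pearson's r was 0.90 (permutation P = 0.0001, adjusted P = 0.0007 over 14 relations) and Spearman's rho was 0.98 (permutation P = 1e-05, the smallest that 100000 resamples can give). Over 10 livers, with the 2 most extreme in Krt18 left out, r was 0.87, and within scan days it was 0.95 and 0.81 over 6 livers each. Over the 12 colons r was 0.11 and rho -0.05 (permutation P = 0.747 and 0.885), where Krt18 itself had an SD of 0.10, and within scan days r was 0.23 and 0.77 over 6 colons each. Whether the relation differs between tissues was not tested.

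Krt19 and Krt20 also varied together over livers, with r of 0.92 (permutation P = 7e-05, adjusted P = 0.0007) and rho of 0.86 (permutation P = 0.00067, adjusted P = 0.00469). The value of r was 0.83 with the 2 livers most extreme in Krt19 left out, 0.57 within day 1 and 0.98 within day 2. Over the 12 colons r was 0.05 and rho -0.05 for this pair (permutation P = 0.874 and 0.886), with r of -0.08 and -0.44 within scan days. Krt18 did not pass the test with Krt7, Krt19, Krt20 or Krt23 in either tissue, at adjusted P of 0.329 or above. In liver these relations differed within scan days, with r of 0.87 on day 1 and -0.47 on day 2 for Krt7, 0.85 and -0.54 for Krt19, and 0.40 and -0.61 for Krt20. For Krt23 in liver r was 0.54 over 12 livers, 0.71 and 0.82 within the days, and -0.28 without the 2 livers most extreme in Krt18. In colon the within-day values of r with these 4 genes ran from -0.29 to 0.54. Nor did it with the share of spots well above background, for which r was -0.12 in colon and -0.10 in liver. All 6 simple-epithelial keratins had a larger SD in liver than in colon, with a median SD about the group mean of 0.497 against 0.293. Of the 14216 probes detected in both tissues, 55.4% had the larger SD in liver.

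Stratified keratins as a class did not follow the simple ones. Of 18 genes, 2 were called higher in colon and 1 higher in liver, with a median difference of -0.12, beside -0.02 for all probes and 3.22 for the simple-epithelial keratins. The 6 that were detected are described in turn by their usual layer.

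Krt5 and Krt14 form the pair of basal cells in stratified epithelium. Krt14 differed by 0.14 ± 0.11 (SE, limma adjusted P = 0.383), with colon values from -0.08 to 0.31 inside liver values from -1.12 to 0.36. Krt5 differed by -0.26 ± 0.09 (SE, limma adjusted P = 0.0201), a fold of 1.19 that did not pass the fold threshold. Neither partner was called, and Krt5 was well above background on 6 of 12 arrays of each tissue.

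Krt10, a keratin of the upper layers of epidermis, was the keratin called higher in liver. It ran from -2.30 to -0.16 in colon (median -0.69) and from -1.06 to 0.22 in liver (median -0.11). The tissues overlapped, and the difference was -0.65 ± 0.17 (SE, limma adjusted P = 0.00203), 1.57-fold higher in liver and higher there in 11 of 12 mice. Its call was lost with median centring of the arrays (-0.24, limma adjusted P = 0.393) and with Cy3 alone (-0.56). It was also lost with the mean of the Krt10 probes (-0.58) and without HF-low-suf replicate 4 (-0.58). No keratin was called higher in liver within scan day 2, so Krt10 had no call there. The dimmer Krt10 probe was well above background on 2 colon and 1 liver arrays and gave -0.51 ± 0.15 (SE), without a call. Krt1, the usual type II partner of Krt10, was not detected in either tissue.

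Krt13, a keratin of the mouth and oesophagus, ran from 0.18 to 1.23 in colon (median 0.81) and from -0.66 to 0.46 in liver (median -0.29) on its brighter probe. This probe was higher in colon in 12 of 12 mice, by 1.04 ± 0.12 (SE), 2.06-fold (limma adjusted P = 3.5e-08). The dimmer probe was well above background on 1 array of each tissue and gave 0.04 ± 0.11 (SE, limma adjusted P = 0.809), with 1 array left out for a flagged spot. The probes thus differed in their call, but the dimmer one was near background in both tissues and could not test the other. The brighter one is the probe with the rod helix start shown above. Whether it also bound RNA of other type I keratins was not tested. Krt4, the partner of Krt13 in those linings, was well above background on 1 array of each tissue.

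Krt16 and Krt17 are keratins of skin appendages and of injured epidermis, and they went opposite ways. Krt17 ran from 0.43 to 1.09 in colon and from -0.01 to 0.38 in liver with no overlap, a difference of 0.69 ± 0.08 (SE), 1.61-fold (limma adjusted P = 1.24e-07). The call of Krt17 was lost with Cy3 alone, where the difference of 0.57 lay under the fold threshold. Krt16 ran from -0.47 to 0.60 in colon and from 0.07 to 1.03 in liver, a difference of -0.53 ± 0.11 (SE, limma adjusted P = 0.000195), whose fold of 1.45 did not pass the threshold. Krt16 was called higher in liver with plain background subtraction (-0.65), with processed signals without loess (-0.85), with Cy3 alone (-0.59) and without the 2 arrays of bright Cy5 (-0.60). The remaining 12 stratified keratins were undetected, differed by -0.29 to 0.16, and had adjusted P of 0.089 or above.

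Hair and inner root sheath keratins stayed near 0. The 11 hair keratins differed by -0.11 to 0.30 with a median of -0.0049 and the 6 inner root sheath keratins by -0.37 to 0.30 with a median of -0.13, and none was called. Krt84 and Krt28 had the smallest adjusted P of their classes, at 0.0185 and 0.0121 (limma), with folds of 1.19 and 1.29. Krt222 was called higher in colon (limma adjusted P = 0.000277), but it was well above background on 2 colon arrays and on no liver array. Its Cy3 signal set no lower bound above 1 for the fold, so only the call can be given, and the call of Krt222 was lost with median centring and with Cy3 alone.

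**Figure D4:**
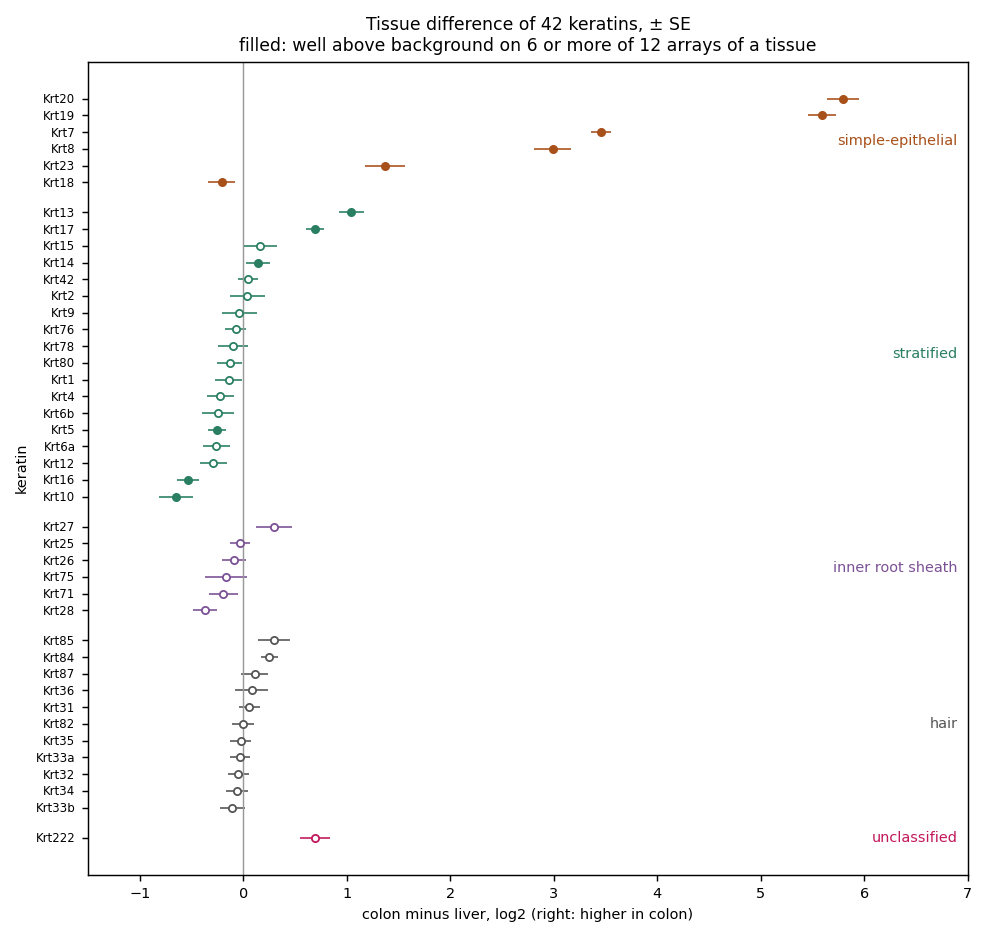
Points give the colon minus liver difference of each of 42 keratins on the log2 scale with its SE from limma over 24 arrays, ordered within classes, filled where the gene was detected in a tissue and open where not. Krt20, Krt19, Krt7, Krt8 and Krt23 stand to the right, Krt18 lies at -0.21, and the open points lie near 0 with Krt222 as the farthest.

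By chromosome, the calls fell as follows. Of the 24 main probes on chromosome 11, 6 were called higher in colon and 1 higher in liver. Of the 18 on chromosome 15, 2 were called higher in colon. Over all probes, 12.2% were called higher in colon and 11.4% higher in liver. Whether the chromosomes differ was not tested.

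The proteins that anchor keratins were measured alongside them. Of 12 desmosome and plakin genes, 8 were higher in colon, 1 was higher in liver and 3 were not called, with a median difference of 0.87. Pkp3, a plakophilin of desmosomes, differed by 2.95 ± 0.17 (SE) and Evpl (envoplakin) by 2.23 ± 0.12. Ppl (periplakin), which binds intermediate filaments, was higher in liver, at -0.70 ± 0.14. Plec (plectin) was not called, at -0.36 ± 0.11, with a fold below the threshold.

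Other intermediate filament genes were also higher in colon, in 9 of 11 cases with none higher in liver. Des (desmin), a filament of muscle, differed by 3.04 ± 0.22 (SE). Synm (synemin), also a filament of muscle, was called too, but its liver side was near background (12 colon and 3 liver arrays well above it). Nes (nestin) was not called, at 0.07 ± 0.09, nor was Gfap, which was well above background on 1 array of each tissue. The 9 called genes thus had the direction of the simple-epithelial keratins other than Krt18.

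Markers of other epithelia were read beside the keratins. Of 20 markers of squamous epithelium, 8 were detected in a tissue, 2 were called higher in colon and 6 higher in liver, with a median difference of -0.25. Trp63, Dsg1a, Dsc3, Flg and Sprr3, which mark squamous cells, were well above background on no array. Other members were detected. Sbsn was well above background on 12 colon and 12 liver arrays, and Sprr1a on 8 and 12. Lor was so on 5 colon and 8 liver arrays, Dmkn on 11 and 4, and Krtdap on 7 and 4. Of these, Sprr1a, Lor and Krtdap were called higher in liver, Sprr1a at -1.69 ± 0.24 (SE). Serpinb5, Ly6d and Tgm1 were detected too. Serpinb5 was called higher in colon (limma adjusted P = 6.91e-15) and was well above background on 12 colon arrays and no liver array. Its Cy3 signal alone, after loess and Aquantile normalization, was at least 19.6-fold higher in colon, with each liver array set to the lowest Cy3 signal well above background or to the probe's own where higher. This bound is on the Cy3 scale, not on that of the ratios to the pool, and is open to dye bias. Dsg3 was called higher in colon (limma adjusted P = 0.00626) but was well above background on 4 colon arrays and no liver array, and no bound above 1 could be set for its fold. Ly6d was higher in liver, at -3.16 ± 0.33 (SE), and Tgm1 was called in the same direction, with a colon side near background (1 colon and 10 liver arrays well above it). The mean log2 ratio of this list on an array ran from -0.93 to -0.33 in colon and from -0.53 to -0.13 in liver.

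Of 6 bile duct markers, 3 were called higher in colon and 2 higher in liver. Epcam and Cftr, which colon epithelium also expresses, differed by 4.80 ± 0.22 and 2.75 ± 0.21 (SE), and Spp1 and Onecut1 by -4.24 ± 0.15 and -3.82 ± 0.16. Spp1 and Onecut1 were well above background on 12 liver arrays but on 2 and 1 colon arrays. Cftr was so on 12 colon arrays and 1 liver array. For these 3 genes the lower tissue was thus near background, which limits the size of the difference. Of 5 mesothelium markers, 1 was called higher in colon (Upk1b) and 1 higher in liver (Wt1, -0.72 ± 0.18). Upk1b was well above background on 2 colon arrays and no liver array, so no size is given for it. In the liver arrays the colon epithelium list had mean log2 ratios from -3.77 to -2.47, against 0.55 to 1.16 in colon. The part of these cell types in the keratin levels was not tested.

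The second comparison asked whether HF-low-suf and HF-low-low differed in keratin expression within each tissue, and no keratin did by the rules used. Differences are HF-low-suf minus HF-low-low, from Cy3 as the sample dye. This orientation is opposite to the one the study names for most of its colon genes and for its liver genes, Slc2a4 included. Among those liver genes, the study prints Errfi1 and Dmbx1 with both signs. The direction of the diet differences is thus not settled, and each is to be read with either sign. The tissue markers above follow Cy3 as the sample dye. By the study's rule, an unadjusted P below 0.01 with a fold change above 1.5, limma called 0.168% of all probes in colon and 0.117% in liver, and 0 of 42 keratins in each. Of the probes so called, 66 were higher and 3 lower on HF-low-suf in colon, and 40 were higher and 8 lower in liver. At an unadjusted P below 0.05 with no fold threshold, which 2.98% of all probes passed in colon and 2.13% in liver, limma called 0 of 42 main probes in either tissue. After Benjamini-Hochberg adjustment the smallest adjusted P of any keratin was 1.0 in both tissues.

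Among the 12 detected keratins the diet differences ran from -0.31 to 0.29 in colon and from -0.15 to 0.35 in liver, with SEs of 0.12 to 0.30 in colon and 0.11 to 0.37 in liver. In all 24 combinations of keratin and tissue the ranges of the diets overlapped. Simple-epithelial keratins lay between -0.05 and 0.11 in colon and between -0.15 and 0.13 in liver.

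Krt8 in colon ran from -0.70 to 0.36 on HF-low-low (median 0.17) and from -0.49 to 0.44 on HF-low-suf (median 0.30). The difference was 0.11 ± 0.20 (SE), with an exact two-sided permutation P of 0.558. In liver it ran from -4.19 to -1.86 on HF-low-low and from -3.64 to -2.20 on HF-low-suf, a difference of -0.02 ± 0.34 (exact permutation P = 0.948). The diet ranges of Krt8 overlapped in both tissues. With an SE of 0.34 in liver, this does not show that the diets were equal there.

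Krt18 differed by 0.01 ± 0.12 (SE) in colon and by -0.15 ± 0.26 in liver, with exact permutation P of 0.918 and 0.582. Krt19 differed by 0.09 ± 0.20 and 0.06 ± 0.22, and Krt20 by -0.05 ± 0.19 and 0.07 ± 0.26. Krt7 differed by -0.02 ± 0.12 in colon and by 0.13 ± 0.18 in liver. Krt23 differed by 0.04 ± 0.15 and 0.03 ± 0.37, the latter with the widest error of the detected keratins. In each of these genes the difference was smaller than its SE.

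With this orientation, the largest rise among the detected keratins was that of Krt10 in both tissues. With each mouse left out in turn, it ran from 0.04 to 0.44 in colon and from 0.21 to 0.43 in liver. Its rank in colon thus depends on which mice are kept. In colon Krt10 ran from -2.30 to -0.28 on HF-low-low and from -1.40 to -0.16 on HF-low-suf, a difference of 0.29 ± 0.30 (exact permutation P = 0.442). In liver it ran from -1.06 to 0.01 and from -0.46 to 0.22, a difference of 0.35 ± 0.18 (exact permutation P = 0.0779). Neither passed the test.

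The largest fall in colon was that of Krt16, from values of -0.03 to 0.60 on HF-low-low to values of -0.47 to 0.27 on HF-low-suf. The difference was -0.31 ± 0.16 (SE), with an exact permutation P of 0.0649. In liver the largest fall was that of Krt18, given above, and Krt16 differed by 0.10 ± 0.18. Dropping single mice moved the Krt18 difference in liver between -0.31 and 0.025. Whether Krt18 fell there at all, and its rank, thus depend on which mice are kept. With the sign turned, Krt10 would have the largest fall in both tissues. The largest rise would be that of Krt16 in colon and of Krt18 in liver, at the same sizes and P. The ranks of Krt10 in colon and Krt18 in liver would depend on single mice in the same way.

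**Figure D5:**
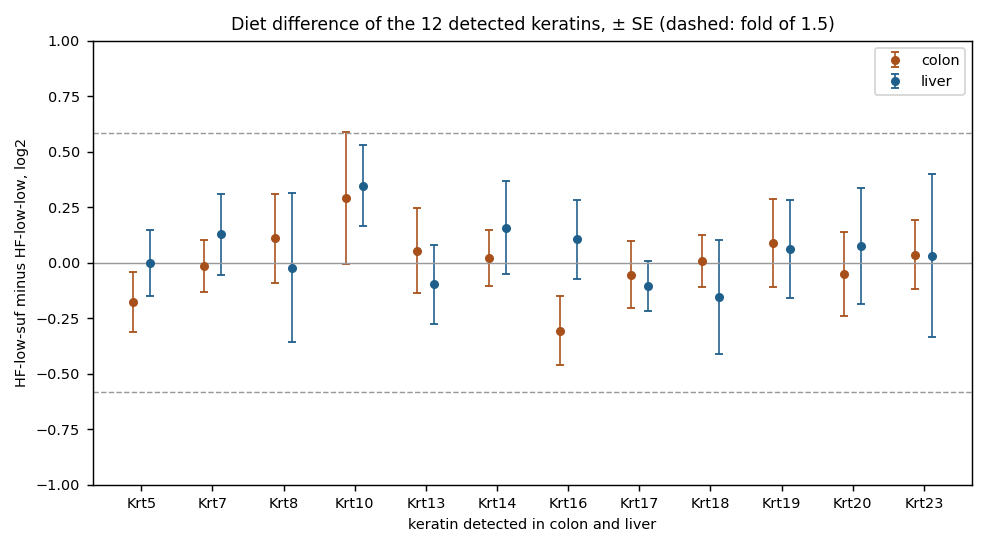
Points give the HF-low-suf minus HF-low-low difference on the log2 scale with its SE from limma over the 12 arrays of a tissue, for colon and liver, and dashed lines mark a fold of 1.5 in either direction. All 24 points lie between the dashed lines, from -0.31 for Krt16 in colon to 0.35 for Krt10 in liver.

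The difference between colon and liver in the diet effect was tested on 24 arrays with mouse again a random block. After Benjamini-Hochberg adjustment limma called 0.00% of all probes and 0 of 42 keratins, and 6.43% of all probes and 2 of 42 keratins had an unadjusted P below 0.05. These were Krt15, at -0.81 ± 0.33 (SE, limma adjusted P = 0.708), and Krt4, at 0.62 ± 0.26 (limma adjusted P = 0.71), both undetected and each with 1 array left out for a flagged spot. The dimmer of the Krt2 probes, well above background on none of the 24 arrays, differed by 0.46 ± 0.18 (SE) in colon and by -0.40 ± 0.14 in liver. The exact permutation P of the diet difference of this probe was 0.0195 in colon and 0.00433 in liver, and the limma adjusted P between tissues was 0.427. Its brighter companion differed by 0.39 ± 0.23 in colon and by -0.17 ± 0.25 in liver, with exact permutation P of 0.152 and 0.593, and was well above background on 1 colon array. The dimmer of the Krt36 probes, well above background on 1 colon array and no liver array, differed by 0.66 ± 0.26 (SE) in liver, with an exact permutation P of 0.0541, and by 0.12 ± 0.21 in colon. Its brighter companion differed by 0.19 ± 0.24 in liver (exact permutation P = 0.439). These dimmer probes of Krt2 and Krt36 were named after their values were seen, as the only keratin probes beside the main ones with a limma unadjusted P below 0.05 for diet.

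The lists measured beside the keratins gave the same counts with diet. Of 12 desmosome and plakin genes, 11 other intermediate filament genes and 20 squamous markers, limma called 0 in either tissue by the study's rule, and 0 at an unadjusted P below 0.05. Median diet differences of the simple-epithelial keratins were 0.02 in colon and 0.05 in liver, beside -0.01 and 0.01 for all probes.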

How the data were processed

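RNA of colon and liver of 12 mice was measured on 24 two-colour arrays, 6 per group of tissue and diet, on 6 slides of 4 arrays with 1 array of every group. Groups and mouse numbers come from the labels. The authors deposited 1 scanner file per array, with the intensity of each of 45018 spots in Cy3 and Cy5 as quantified by Feature Extraction 9.5.3.1, per the file headers. The mean signal and local background median used here were neither background corrected nor dye normalized, and the software's processed signal was. The submitters' notes name limma.

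Here signals were corrected with normexp (offset 50), 1639 control spots and outlier-flagged spots were left out, each array was loess normalized, and spots were averaged per probe (limma 3.58.1, R 4.3.3). Tissue and interaction fits used 24 arrays, mouse being a random block (statmod 1.5.0, correlation 0.158) and diet fits the 12 arrays of a tissue. Single keratins were tested with exact two-sided permutations, 924 for diet and 4096 sign flips for tissue. Of the 50 keratin probes, 38 matched current names by accession. Replicates correlated at 0.655 to 0.938 and were distinct arrays, and the number of arrays limits the precision. Median Cy3 signals were 3.78 to 7.20 times background. The pairing of tissues by mouse comes from the labels, and after removing group means the colon and liver of a mouse correlated at -0.03 to 0.285.

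On simulated data, 100 of 41174 probes were changed by each of 2 sizes. At a log2 size of 1, the tissue fit recovered 96.0% and the diet fits 94.0% in colon and 95.0% in liver. The interaction fit recovered 46.0%. These are rates over probes drawn at random and need not hold for keratins of wide SE, such as Krt8 and Krt23 in liver. The text names all simple-epithelial keratins, all detected keratins, those called, the largest detected rise and fall with diet, probes that disagree, and, of each other list, the 2 largest differences in each direction and members called against their list. Of the squamous markers, those detected and those well above background on no array are named too. The members and lists were chosen with earlier results of these data known. Alternatives were other background corrections and scalings, Cy3 alone, flagged spots kept, dim probes left out, the mean of a gene's probes, scan day and replicate blocks, and leaving out each mouse.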

Additional observations from a re-analysis of the deposited data

Results flagged for a closer look

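In 6 of the 52 groups of 6 arrays examined for the 13 named keratins, 1 array stood far from the other 5, and chance alone gives about 1 such group in 20. Krt8 in colon HF-low-low replicate 3 was at -0.70, with the others from 0.12 to 0.36. Krt20 in colon HF-low-low replicate 4 was at 0.70, above the others at -0.46 to -0.16. Krt7 in colon HF-low-suf replicate 1 was at 1.16, below the others at 1.37 to 1.45. Krt18 in colon HF-low-low replicate 1 was at 0.96, above the others at 0.63 to 0.74. Krt23 in liver HF-low-low replicate 2 was at 2.38, above the others at -0.04 to 0.81. Krt14 in liver HF-low-low replicate 3 was at -1.12, below the others at -0.10 to 0.36. The arrays were kept. Leaving out each mouse in turn ended no tissue call of Krt7, Krt8, Krt20 or Krt23, while Krt14 and Krt18 had no call to lose and gained none.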

How the results depend on the processing

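Leaving out each mouse in turn left 8 to 9 keratins called between tissues, 8 higher in colon and 0 to 1 higher in liver, and 0 with diet or in the interaction. Leave-one-out medians were 3.17 to 3.28 for simple-epithelial, -0.15 to -0.09 for stratified, -0.16 to -0.05 for inner root sheath and -0.02 to 0.05 for hair keratins. Keratins higher in liver numbered 2 with plain subtraction, 2 with processed signals, 2 without the 2 arrays of bright Cy5 (chosen after seeing the data), 2 within scan day 1, 0 within scan day 2, 0 with median centring and 0 with the mean of all probes. Processed signals without loess moved the median of all probes to 0.19 and the stratified, inner root sheath and hair medians to 0.059, 0.29 and 0.24, and Cy3 alone gave 4.06 for simple-epithelial keratins. Median centring put 71.0% of all called probes higher in colon, beside 51.8%. Called keratins numbered 7 to 13 over the alternatives. Krt10 lost its call with median centring, Cy3 alone (-0.56), the mean of its probes (-0.58), without HF-low-suf replicate 4 and within scan day 2. Krt13 lost its call with the mean of its probes (0.56) and Krt17 with Cy3 alone (0.57). Krt222 lost its call with median centring and Cy3 alone. Krt16 gained a call in 3 settings, at -0.65, -0.85 and -0.59, and without the bright arrays (-0.60). Fits within a scan day gave counts of calls only, so gains there are not listed by gene. Uncalled values that changed sign were Krt18 (0.26) and Krt14 (-0.0043) with Cy3 alone, and with median centring the diet difference of Krt7 in colon (0.14) and of Krt222 in liver (-0.22). An uncalled change of sign was counted where it exceeded the SE. Krt8 minus Krt18 stayed at 3.06 to 3.56 over the alternatives. The causes were not tested. Same-numbered arrays of the diets shared a slide and correlated at -0.50 to 0.53, so the numbers were not taken as pairs, and the replicate block gave 0 keratins called with diet in either tissue, the mouse as a fixed replicate block 9 and no replicate block 9 between tissues, so neither changed a call. Differences of undetected keratins are limited by signals near background.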
